A study of Sus scrofa with 37 samples.

Results

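Beta cells, the insulin-secreting cells of the pancreatic islet, were compared between embryonic day 70 (E70) and embryonic day 40 (E40) in the pig. The libraries were chosen by their labels alone, as those of beta cells at these ages, and make up 11 of the 37 libraries of the series: 6 from E40 and 5 from E70. All came from Sus scrofa pancreas, from cells purified by fluorescence-activated cell sorting, and hold total RNA built into libraries with a stranded kit. No group carries a treatment or an allele in the labels, which also name neither the breed nor the sort markers. Glucagon-secreting alpha cells of the same ages (3 libraries at E40 and 5 at E70), prepared the same way, served for the test of whether a change differed between the 2 cell types. Nothing in the labels says whether the libraries of a group came from separate fetuses, litters or pools. The p-values therefore measure only spread between libraries, which may be technical. Those of genes pool the spread within all cell type and age groups of the 37 libraries, and those of shares use the 11 beta cell libraries.

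Endocrine cells of the pancreas arise in the fetus from progenitors that briefly switch on the transcription factor gene NEUROG3, and then turn on a hormone gene. A fetal beta cell makes insulin early, but acquires only gradually the enzymes, ion channels, receptors and transcription factors through which blood glucose sets the rate of insulin release. Over the same period the number of beta cells grows both by new formation and by division of existing cells, and division slows as the cells mature.

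The labelled cell type was checked against its defining transcripts, in TPM, a transcript level corrected for gene length and set to the same total in each library. INS (insulin, ENSSSCG00000033740.1) took 9.41% to 16.0% of all TPM in the E40 libraries and 13.7% to 22.3% in the E70 libraries. PDX1 was between 90.5 and 189 TPM, NKX6-1 between 67.6 and 187 TPM, and the glucose transporter gene SLC2A2 between 32.3 and 81.3 TPM in all 11 libraries. GCG (glucagon) reached at most 2297 TPM in a beta library, against a mean of 184621 ± 9134 TPM in the alpha libraries of E40. Of the defining transcripts of other cells, the acinar lipase gene PNLIP was listed at 0 in all but E40 replicate 3 and E70 replicate 3, the acinar enzyme gene CPA1 ranged from 50.4 to 4088 TPM, and the immune marker PTPRC stayed at or below 4.44 TPM. A pair of libraries stood apart. E40 replicate 1 held the most GCG (2297 TPM), SST (229.5 TPM) and globin transcripts (HBB at 256 TPM) and the smallest mitochondrially encoded share (8.93% of TPM) of its group. E70 replicate 3 lay far from the others on the second principal component and held 1217 TPM of the heat shock gene HSPA1A and 336 TPM of the early response gene FOS, whose next highest value in the 11 libraries was 92.1 TPM. Between 13511 and 15337 genes reached 1 TPM in a library.

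The makeup of the RNA shifted between the ages. INS rose from a mean share of 13.0% ± 2.27 (SD, n = 6) to 18.9% ± 3.41 (SD, n = 5), a gain of 5.95 percentage points. Its shares at E70 were 19.4%, 13.7%, 21.4%, 22.3% and 17.7%, and at E40 the lowest, median and highest were 9.41%, 12.9% and 16.0%. The groups overlapped only through E70 replicate 2, which lay within the E40 range. An exact two-sided permutation test over all assignments of the libraries gave p = 0.013, or 0.0286 after Benjamini-Hochberg adjustment over 11 shares. That call was lost in 8 of the 11 tests that left out 1 library (adjusted p at most 0.0629 by the exact permutation test), without both libraries that stood apart (0.0698) and without the low-numbered libraries, those with sample title numbers under 100 (0.157). Beside this share, the limma fit over all genes gave INS a log2 change of 0.54 ± 0.63 (SE), which did not pass (adjusted p = 0.67). That SE pools the spread of INS within all groups of the 37 libraries, those of alpha and delta cells among them.

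Transcripts of the mitochondrial genome took 9.47%, 7.29%, 8.81%, 7.48% and 11.3% of TPM in the E70 libraries, against a range of 8.93% to 14.8% with a median of 13.9% at E40. Only E40 replicate 1 lay among the E70 values, and the mean fell by 4.34 percentage points (exact permutation test, adjusted p = 0.0286). Ribosomal protein transcripts took 3.74%, 3.66%, 2.83%, 2.93% and 3.05% at E70, all below the E40 libraries (4.03% to 5.96%, median 4.94%), with the same adjusted p. Red blood cell markers fell from a mean of 0.0294% to 0.006% and endothelial markers rose from 0.00605% to 0.0111% of TPM, each with an adjusted p of 0.0286 in the same test. E40 replicate 1 alone held 0.120% of red blood cell markers and the other E40 libraries at most 0.0136%, and without it the difference was -0.00516 in place of -0.0234 percentage points and was not called (exact permutation test, adjusted p = 0.0524). The calls of the mitochondrially encoded, ribosomal protein, red blood cell and endothelial shares were each lost in 8 or 9 of the 11 tests that left out 1 library, and all 4 without the low-numbered libraries. The acinar share was 0.126% ± 0.0766 at E40 and 0.344% ± 0.307 at E70 and the mesenchyme share 0.0226% ± 0.00599 and 0.0466% ± 0.032, neither past the threshold (exact permutation test, adjusted p = 0.196 and 0.190). Their spread at E70 was wide: the acinar share ran from 0.0246% in replicate 3 to 0.749% in replicate 4, and the mesenchyme share from 0.0151% in replicate 3 to 0.0925% in replicate 1. The part of these other cells in the gene results below was not tested, and in such bulk libraries fewer cells of a type and less RNA per cell cannot be told apart.

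**Figure D1:**
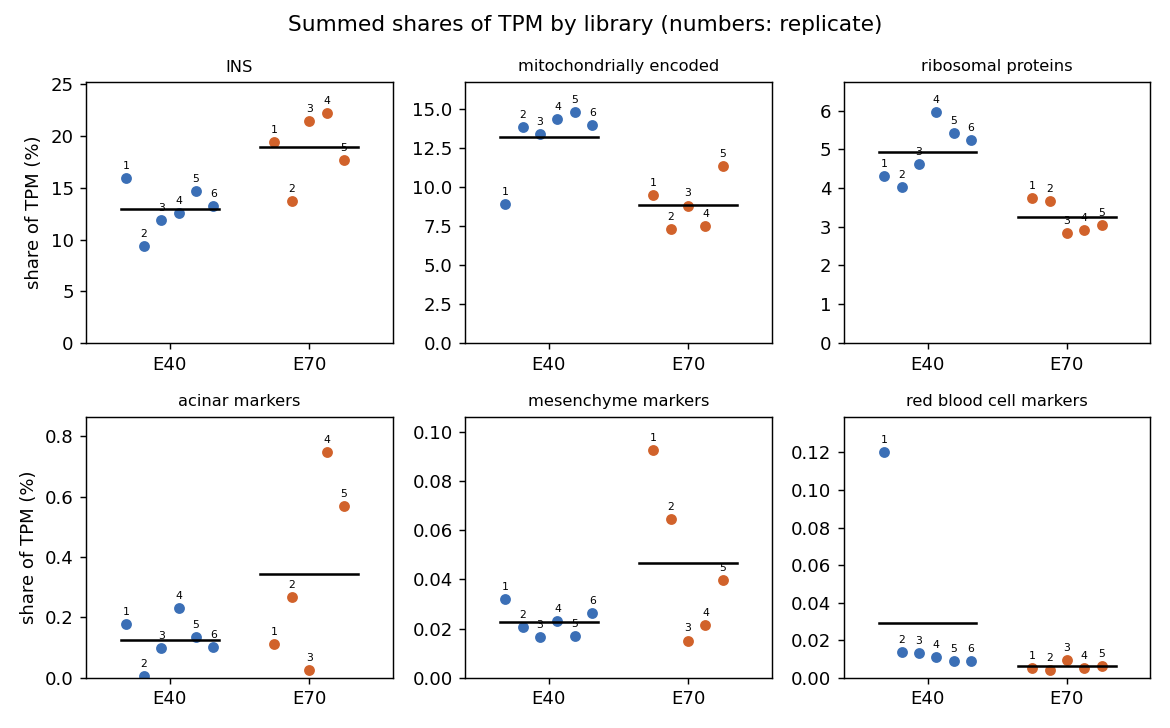
Shares of all TPM (y axis, percent) taken by INS, by mitochondrially encoded, ribosomal protein, acinar, mesenchyme and red blood cell transcripts in each beta cell library at E40 (blue, 6) and E70 (orange, 5). Points carry the replicate number and black bars are group means; the ribosomal protein shares at E70 (2.83% to 3.74%) all lie below those at E40 (4.03% to 5.96%).

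Of 17839 genes tested with limma on log2(TPM + 1), 699 rose (3.92% of those tested) and 832 fell (4.66%) from E40 to E70 at an adjusted p below 0.05, 8.58% in all. Folds on this scale understate the change of genes with low levels. In every E70 library 547 genes were above every E40 library (3.07%) and 783 were below (4.39%), 7.46% in all, and 380 of the rises and 520 of the falls were both called and without overlap. The median change over all genes was 0.06. The balance of rises and falls depended on the scaling: after removal of the 10 most abundant features, chosen after seeing the data, 1564 rose and 439 fell, and the median moved to 0.24. The sample titles carry numbers, and those of E40 replicates 1 and 2 and E70 replicates 1 and 2 are under 100, while the others are above; the labels do not say what the numbers mean. With the low-numbered libraries left out, 713 genes rose and 580 fell, and among the low-numbered libraries alone (2 against 2) 38 rose and 21 fell. Without both libraries that stood apart 779 rose and 845 fell.

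Several genes that mark a maturing beta cell rose, and several that build the secretory granule fell. Of 25 measured beta cell markers 5 rose (20%), among them G6PC2, MAFA, SLC30A8 and NPTX2, and 1 fell (PCSK1, 4%), beside 3.92% and 4.66% of all genes. The list had a median log2 change of 0.31 beside 0.06 over all genes. In alpha cells over the same ages the list's median was 0.88, beside 0.33 over all genes. G6PC2 (ENSSSCG00000015925.3), the islet enzyme that turns glucose 6-phosphate back into glucose, was at 378, 267, 707, 483 and 385 TPM at E70. At E40 its lowest, median and highest values were 10.8, 24.5 and 68.6 TPM. Every E70 library was above every E40 library, and the change was log2 3.99 ± 0.43 (adjusted p = 4.54e-07). MAFA (ENSSSCG00000034820.1), a transcription factor that binds the insulin promoter and marks mature beta cells, was listed at or near 0 at E40 (0, 0.195 and 4.13 TPM as lowest, median and highest, the last in replicate 1). It stood at 17.6, 13.8, 12.1, 12.6 and 8.49 TPM at E70. The groups did not overlap, and the change was 3.09 ± 0.42 (adjusted p = 1.12e-05). SLC30A8, the zinc transporter that loads insulin granules, was at 453, 348, 655, 573 and 468 TPM against 202.8 to 288.2 TPM at E40, all E70 libraries above (log2 1.02 ± 0.19, adjusted p = 0.000659). The synaptic pentraxin gene NPTX2 rose from 30.9 ± 6.33 to 75.6 ± 24.2 TPM (log2 1.22 ± 0.23, adjusted p = 0.000782), and its lowest E70 value (42.9 TPM) lay just above the highest at E40 (42.6 TPM).

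Among 20 genes of proinsulin processing and the granule, 2 rose (SLC30A8 and PCSK1N) and 5 fell (PCSK1, PAM, CHGB, SCG2 and SCG3), with a median of -0.24. These are 10% and 25%, beside 3.92% and 4.66% of all genes. CHGB (chromogranin B, a protein that packs granule cargo) was at 822, 1005, 488, 358 and 479.8 TPM at E70, and at 1060.5, 1821 and 2653 TPM as lowest, median and highest at E40. All E70 libraries lay below all E40 libraries (log2 -1.55 ± 0.26, adjusted p = 0.000197). SCG2 (secretogranin II, of the same granin family) fell from 4221 ± 499.6 to 1921 ± 339 TPM, without overlap (log2 -1.14 ± 0.23, adjusted p = 0.00136), but its adjusted p was 0.135 after quantile normalization. PCSK1 (ENSSSCG00000014169.3), the protease that makes the first cut in proinsulin, was at 501, 480.5, 417, 312 and 445 TPM against 623 to 921 TPM at E40. These values did not overlap, and the change was -0.87 ± 0.25 (adjusted p = 0.023). That call was lost after quantile normalization (log2 -0.44; adjusted p = 0.418), without the 10 most abundant features (0.117), without both libraries that stood apart (0.0599), without the low-numbered libraries (0.0997), with a pseudocount of 0.1 (0.303) and without E40 replicate 3 (0.0507) or E70 replicate 4 (0.0814). PCSK1N, which encodes the inhibitor proSAAS, rose from 154 ± 46.1 to 381 ± 86.5 TPM, without overlap (log2 1.31 ± 0.21, adjusted p = 8.79e-05). The list itself read 4 up and 1 down after quantile normalization. Its falls numbered 2 or 3 without E40 replicate 2 (3) or 3 (2) or E70 replicate 2 (3) or 4 (2).

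**Figure D2:**
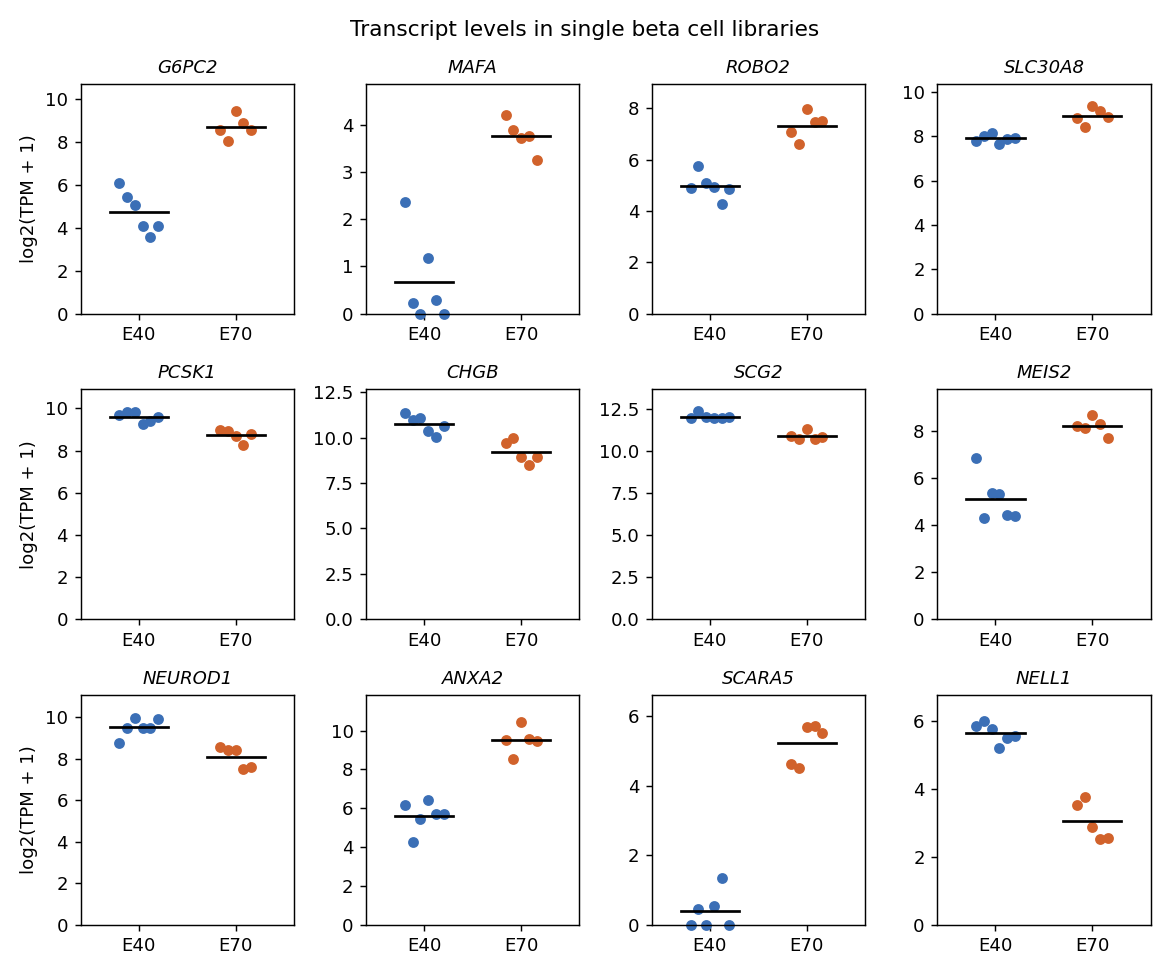
Transcript level, log2(TPM + 1), of 12 genes in single beta cell libraries at E40 (blue, 6 libraries) and E70 (orange, 5 libraries), with the group mean as a black bar. G6PC2, MAFA, MEIS2, ANXA2 and SCARA5 lie higher at E70 and CHGB, SCG2, PCSK1 and NELL1 lower, without overlap of the libraries in any of these 9.

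The exocytosis machinery had 3 falls (RAB3D, RIMS2 and SYT4) and no rise among 27 measured genes (11.1% falling, beside 4.66% of all genes), with a median of 0.07. No fall was called without E40 replicate 3 or E70 replicate 4, and 1 without E40 replicate 2 or E70 replicate 5. After quantile normalization 4 members rose and none fell, and after removal of the 10 most abundant features 8 rose and none fell.

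Other hormone genes were low or variable. Of 17 measured islet hormones 1 rose (SST, somatostatin) and 1 fell (TAC1, the tachykinin precursor), 5.88% each way beside 3.92% and 4.66% of all genes. SST stood at 49.9, 71.6, 31.7, 18.7 and 126 TPM at E70, while at E40 it was between 0.156 and 1.93 TPM in 5 libraries and 229.5 TPM in replicate 1. The groups overlapped through that library alone (log2 3.40 ± 0.82, adjusted p = 0.00755), the call was kept without it, and it was lost when only the compared groups were fitted (0.108). The summed delta cell markers took 0.0412% of TPM at E40 and 0.0345% at E70, a difference that did not pass (exact permutation test, adjusted p = 0.552). That sum does not follow SST alone, since it also holds GHSR, which fell from 181 ± 30.6 to 96.4 ± 11.3 TPM in these beta libraries. The part of delta cell RNA in the SST rise was not tested. TAC1 fell from 154 ± 34.6 to 39.3 ± 20.9 TPM, without overlap (log2 -2.11 ± 0.66, adjusted p = 0.0432), but the call was lost without any single E40 library or without E70 replicate 2, 3 or 4 (adjusted p 0.0533 to 0.123). PPY (pancreatic polypeptide) was at 386, 377, 0, 0 and 183.1 TPM at E70 and at most 9.55 TPM at E40, and did not pass (adjusted p = 0.0695). It passed in 5 of 25 alternatives. Among them were the fits without E70 replicate 3 or 4, the libraries listed at 0 (lower adjusted p of these fits = 0.0105). UCN3, a peptide that beta cells release to act on delta cells, was already at 530.1 to 792 TPM at E40 and at 787 to 1013 TPM at E70, and did not pass (log2 0.45 ± 0.25, adjusted p = 0.315). It passed in 3 of 26 alternatives (lowest adjusted p = 0.0271), among them quantile normalization (adjusted p = 0.0383).

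Of 47 measured islet transcription factors 6 rose (12.8%) and 2 fell (4.26%), beside 3.92% and 4.66% of all genes, with a median of 0.21. MEIS2 (ENSSSCG00000004795.3), a homeodomain factor active in islet and neural development, was among the larger rises, at 300.2, 282.6, 413.4, 321.9 and 210.4 TPM at E70. Its lowest, median and highest values at E40 were 18.8, 30 and 114 TPM, the last in replicate 1. No libraries overlapped (log2 3.11 ± 0.37, adjusted p = 1.82e-06). NEUROD1 (ENSSSCG00000016011.2), a basic helix-loop-helix activator of the insulin gene downstream of NEUROG3, went the other way, at 380.2, 344, 337, 181 and 192 TPM against 428, 714 and 996 TPM (lowest, median, highest) at E40. Every E70 library was below every E40 library (log2 -1.41 ± 0.23, adjusted p = 9.95e-05). NEUROG3 itself was at 16.8, 16, 10.1, 20.5 and 38.9 TPM at E70 and between 1.08 and 8.27 TPM in 5 of the E40 libraries, with 29.9 TPM in replicate 1. It did not pass with that library (log2 1.73 ± 0.61, adjusted p = 0.0779). It passed in 5 of 26 alternatives (lowest adjusted p = 0.00128), the fit without that library among them (adjusted p = 0.0111). Of 28 endocrine progenitor factors RUNX1T1 and BTBD17 rose (7.14%) and ONECUT2 fell (3.57%), beside 3.92% and 4.66% of all genes, with a median of 0.20.

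Of 23 alpha cell markers 6 rose (26.1%, beside 20% of the beta cell markers and 3.92% of all genes) and none fell, with a median of 0.11; PTGER3 is one of the 6, and the list's summed share of 0.294% at E40 and 0.320% at E70 did not pass (exact permutation test, adjusted p = 0.576). LMX1A, a LIM homeodomain factor, was at most 0.44 TPM at E40 and 0.371 to 1.89 TPM at E70 (log2 0.92 ± 0.24, adjusted p = 0.0153); the call was lost without E70 replicate 1 (0.0546), after quantile normalization (0.0661), without both libraries that stood apart (0.0532) and without the low-numbered libraries (0.228). FOXA2 and FOXA1 are pioneer factors of endoderm. FOXA2 rose slightly (log2 0.60 ± 0.19, adjusted p = 0.0429) from 53.4 ± 14.8 to 79.2 ± 8.13 TPM, and FOXA1 fell (-1.0 ± 0.31, adjusted p = 0.0447) from 2.66 ± 1.42 to 0.955 ± 1.14 TPM. Both calls were fragile. FOXA2 was lost without E40 replicate 4, 5 or 6 or E70 replicate 1, 2, 3 or 5 (adjusted p 0.0735 to 0.117), and FOXA1 without E40 replicate 1, 4, 5 or 6 or E70 replicate 1, 2 or 4 (0.0577 to 0.155).

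The factors that define the beta lineage did not pass. PDX1, which specifies pancreas and maintains beta cells, was at 123.8 ± 43.5 and 148 ± 23.9 TPM (log2 0.31 ± 0.35, adjusted p = 0.659). NKX6-1, which holds beta cells apart from alpha cells, was at 81.4 ± 15.9 and 140.4 ± 35.9 TPM (0.76 ± 0.27, adjusted p = 0.0751). It passed in 5 of 26 alternatives, among them quantile normalization (0.0272), removal of the 10 most abundant features (0.0181), only the groups compared (0.0239) and removal of both libraries that stood apart (0.0421). NKX2-2 (-0.06 ± 0.17, adjusted p = 0.899) and PAX6 (0.39 ± 0.17, adjusted p = 0.173), both general endocrine factors, did not pass either. PAX6 did in 3 of 26 alternatives, among them quantile normalization (0.00221) and removal of the 10 most abundant features (0.0153).

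Glucose handling and electrical excitability changed in single genes. Of 25 genes of glucose sensing and glycolysis 3 rose (G6PC2, ENO2 and PFKL, 12%) and 1 fell (GAPDH, 4%), beside 3.92% and 4.66% of all genes. ENO2, the neuronal and endocrine form of enolase, was at 25.1, 26, 26.4, 41.4 and 29.9 TPM at E70. The E40 libraries lay between 2.88 and 11.7 TPM with a median of 5.14 TPM, none of them near the E70 values (log2 2.28 ± 0.38, adjusted p = 0.00019). PFKL, the liver form of phosphofructokinase, rose from 23.3 ± 8.46 to 42.5 ± 7.78 TPM (0.88 ± 0.20, adjusted p = 0.00444), with E40 replicate 1 (39.8 TPM) inside the E70 range.

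Of 29 genes of ion channels and excitability 5 rose (17.2%) and 2 fell (6.9%), beside 3.92% and 4.66% of all genes, with a median of 0.24. The rises were those of the calcium channel genes CACNA1A, CACNA1H and CACNA2D2 and the potassium channel genes KCNH2 and KCNMA1. KCNMA1, the large-conductance calcium-activated potassium channel, rose from 58 ± 8.37 to 99.1 ± 23.7 TPM, without overlap (log2 0.74 ± 0.16, adjusted p = 0.00273). KCNH2, a channel that helps repolarize the membrane, rose from 25.5 ± 9.34 to 48.4 ± 2.71 TPM, and its E70 libraries (44.7 to 51.8 TPM) lay just above E40 replicate 1 at 42.8 TPM (0.96 ± 0.21, adjusted p = 0.00337). Its relative KCNH6 fell from 82.9 ± 12.7 to 37.4 ± 13.2 TPM, without overlap (-1.21 ± 0.24, adjusted p = 0.00113). CACNA2D1, a calcium channel subunit, was at 211, 203, 188, 148 and 199 TPM against 332 to 586 TPM at E40, all E70 libraries below (-1.13 ± 0.18, adjusted p = 9.95e-05). The count of rises fell to 2 without E40 replicate 4, 5 or 6 and to 3 without E70 replicate 1 or 2.

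Outside that list, 2 further genes of channel function rose more. KCNG3, a modifier subunit of voltage-gated potassium channels, was listed at 0 in 3 of the E40 libraries with a highest value of 2.34 TPM, and stood at 14.7, 11.3, 20.2, 23.8 and 11.1 TPM at E70. The groups were far apart (log2 3.63 ± 0.38, adjusted p = 2.51e-07). PEX5L, whose protein binds pacemaker (HCN) channels, rose from 7.39 ± 3.33 to 61.2 ± 12.2 TPM, without overlap and with one of the smallest adjusted p values of the comparison (2.96 ± 0.21, adjusted p = 2.43e-10).

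Receptors through which nerves and hormones act on the islet were among the called genes. Of 37 measured 4 rose (10.8%) and 2 fell (5.41%), beside 3.92% and 4.66% of all genes, with a median of 0.24. The share of falls is close to that of all genes. CHRM3, the muscarinic receptor by which acetylcholine raises insulin release, was at 11.6, 12.5, 34, 30.5 and 16.5 TPM at E70. At E40 it was between 1.32 and 3.52 TPM with a median of 2.42 TPM, below all E70 libraries (log2 2.61 ± 0.39, adjusted p = 4.63e-05). P2RY1, a receptor for extracellular ADP, was at 30.4, 17.5, 73.5, 42.8 and 47.5 TPM against 3.39 to 8.54 TPM, again without overlap (2.53 ± 0.44, adjusted p = 0.000237). SSTR5, a somatostatin receptor, was at most 0.738 TPM at E40 and at least 1.52 TPM at E70 (1.44 ± 0.36, adjusted p = 0.0109), and did not pass with a pseudocount of 0.1 (0.052). INSR, the insulin receptor, was the fourth that rose. GHSR, the ghrelin receptor, fell from 181 ± 30.6 to 96.4 ± 11.3 TPM, without overlap (-0.89 ± 0.24, adjusted p = 0.015), but not with a pseudocount of 0.1 (0.052), without the 10 most abundant features (0.0773) or without the low-numbered libraries (0.12); GCGR, the glucagon receptor, fell as well. PTGER3, a prostaglandin E receptor that lowers cyclic AMP and here sits in the list of alpha cell markers, was at 74.9, 47.9, 79.8, 63.4 and 54.2 TPM against 0.361, 4.76 and 14 TPM (lowest, median, highest) at E40, with no overlap (3.49 ± 0.52, adjusted p = 4.04e-05).

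Thyroid and steroid hormones drive late fetal maturation in many organs. Of 20 measured genes of these pathways 3 rose (15%) and 2 fell (10%), beside 3.92% and 4.66% of all genes. THRA, a thyroid hormone receptor, was at 30.3 to 44.4 TPM at E70 and 11.4 to 30 TPM at E40, where the highest value was in replicate 1 (log2 1.04 ± 0.21, adjusted p = 0.00124). DIO2, the deiodinase that activates thyroid hormone inside the cell, was at 10.3, 0.621, 6.43, 6.35 and 16.2 TPM at E70 and 0.0461 to 1.43 TPM at E40. It overlapped through E70 replicate 2 (2.02 ± 0.44, adjusted p = 0.00308). NR3C2, the mineralocorticoid receptor, rose from 1.36 ± 0.832 to 11.3 ± 4.29 TPM without overlap (2.39 ± 0.26, adjusted p = 5.62e-07). The falls were of FKBP5 and ZBTB16, both known targets of the glucocorticoid receptor. FKBP5 was at 83.2, 72.9, 48.4, 79.6 and 87.3 TPM against 106 to 168.9 TPM (-0.93 ± 0.18, adjusted p = 0.000957), and ZBTB16 at 0.507 to 8.14 TPM against 9.31 to 19.3 TPM (-1.95 ± 0.40, adjusted p = 0.0015), neither with overlap. The clock gene PER3 rose from 4.47 ± 0.749 to 23.2 ± 8.42 TPM, its lowest E70 value (14.7 TPM) well above its highest at E40 (5.47 TPM; 2.09 ± 0.22, adjusted p = 2.14e-07).

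Among the largest and most clearly separated rises were genes with no place in the islet lists. SCARA5 (ENSSSCG00000009672.3), a scavenger receptor that takes up ferritin, was listed at 0 in 3 of the E40 libraries and reached 1.53 TPM in the highest. It stood at 23.8, 21.8, 50.6, 52.3 and 45 TPM at E70 (log2 4.83 ± 0.42, adjusted p = 1.08e-08). No other called rise named here was as large apart from the pancreatic enzyme transcripts given further below. ANXA2, a calcium-dependent membrane-binding protein that takes part in exocytosis, was at 722, 375, 1418, 767 and 719 TPM against 18.4, 51.3 and 85 TPM (lowest, median, highest), far apart in every library (3.89 ± 0.36, adjusted p = 2.33e-08). SMIM24, a small membrane protein, rose from 0.996 ± 0.825 to 29 ± 16.2 TPM (3.83 ± 0.33, adjusted p = 1.08e-08). PLD1, a phospholipase D active in vesicle traffic, rose from 11.7 ± 3.37 to 74.6 ± 19.3 TPM (2.59 ± 0.24, adjusted p = 2.88e-08). ADAM23, a surface protein of the disintegrin family, rose from 10.7 ± 2.14 to 76.9 ± 26.2 TPM (2.70 ± 0.25, adjusted p = 2.85e-08), and UGT8, which makes galactosylceramide, from 4.41 ± 2.3 to 32.3 ± 9.38 TPM (2.68 ± 0.26, adjusted p = 6.04e-08). None of these 6 genes had overlapping libraries.

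The falls of the same kind included signalling and early developmental genes. NELL1, a secreted protein with growth factor repeats, was at 10.4, 12.5, 6.32, 4.79 and 4.83 TPM at E70 and 35.6, 49.4 and 62 TPM (lowest, median, highest) at E40. The libraries did not overlap (log2 -2.59 ± 0.27, adjusted p = 1.93e-07). JAK1, a kinase of cytokine receptors, was at 133.7, 140.5, 124.7, 143.3 and 131.7 TPM against 229 to 311 TPM, a fall of small size and small spread (-0.99 ± 0.09, adjusted p = 3.46e-08). TLE1, a corepressor that works with many transcription factors, fell from 142 ± 8.96 to 44.1 ± 17.1 TPM (-1.75 ± 0.20, adjusted p = 8.05e-07), and MYH9, a non-muscle myosin, from 755.9 ± 124.5 to 328 ± 63.5 TPM (-1.20 ± 0.15, adjusted p = 3.58e-06). CRABP2, which carries retinoic acid to the nucleus, was at most 3.06 TPM at E70 and between 2.79 and 71 TPM at E40, overlapping through E40 replicate 2 (-4.03 ± 0.63, adjusted p = 7.28e-05). Among 22 genes of the retinoic acid pathway CRABP2 and the retinol transporter gene STRA6 fell (9.09%, beside 4.66% of all genes) and none rose. ZFP42, a zinc finger gene of pluripotent cells, was listed at 0 in 3 of the E70 libraries and reached 3.73 TPM, against 6.82 to 30.2 TPM at E40 (-3.75 ± 0.61, adjusted p = 0.000118). NEUROG1, a neural relative of NEUROG3, was also listed at 0 in 3 E70 libraries, with up to 6.25 TPM in the others and 3.4 to 45.4 TPM at E40, a small overlap (-2.79 ± 0.50, adjusted p = 0.000438).

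Many genes of cell division fell. Of 45 measured DNA replication genes 18 fell (40%) and none rose, with a median log2 change of -0.79, beside 4.66% falling and a median of 0.06 over all genes. Of 61 mitosis genes 31 fell (50.8%) and none rose, with a median of -1.14. Only 1 gene of each list had a positive value. Among 26 genes named HIST, which encode the histones that package new DNA, 9 fell and none rose, with a median of -1.33. The summed HIST share of TPM was 0.456% to 1.33% at E40 and 0.272% to 0.352% at E70, without overlap, and within E40 it was lower in the low-numbered replicates 1 (0.604%) and 2 (0.456%) than in the others (1.09% to 1.33%).

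MCM7, a subunit of the helicase that opens DNA for replication, was at 40.8, 44.5, 45.9, 45.2 and 53.4 TPM at E70 and at 64.1, 79.5 and 97.3 TPM (lowest, median, highest) at E40. All E70 libraries were lower (log2 -0.79 ± 0.13, adjusted p = 0.000144). Of the same helicase, MCM5 fell from 40.8 ± 8.1 to 17 ± 3.82 TPM (-1.22 ± 0.27, adjusted p = 0.0039) and MCM6 from 98.1 ± 14.8 to 59.9 ± 9.25 TPM (-0.70 ± 0.16, adjusted p = 0.00484), the latter not without the low-numbered libraries (0.143). PRIM1, the primase subunit that starts new strands, fell from 44.5 ± 8.39 to 22.1 ± 2.04 TPM (-0.96 ± 0.21, adjusted p = 0.00383). None of these 4 genes overlapped between the ages. SMC4, a condensin that compacts chromosomes, was at 55.1, 42.4, 36.1, 35.4 and 45.5 TPM against 76.8 to 128 TPM, clearly separated (-1.28 ± 0.21, adjusted p = 0.000131).

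The spindle gene HMMR fell from 36.6 ± 9.55 to 11.9 ± 3.74 TPM (log2 -1.56 ± 0.29, adjusted p = 0.000612) and NUSAP1, which bundles spindle microtubules, from 30.4 ± 7.18 to 13.3 ± 1.07 TPM (-1.11 ± 0.21, adjusted p = 0.000903). KIF18A, a motor that aligns chromosomes, was at 4.54, 4.03, 5.04, 0.358 and 4.26 TPM against 7.94 to 17.9 TPM (-1.80 ± 0.35, adjusted p = 0.00111). ECT2, which sets up the cleavage furrow, fell from 48.2 ± 12.9 to 13.9 ± 4.64 TPM (-1.74 ± 0.39, adjusted p = 0.00357). In these 4 genes too the E70 libraries lay below all E40 libraries. The replication count was 11 without E70 replicate 1 or 3, and 10 without the low-numbered libraries, where the mitosis count was 20. Removal of the 10 most abundant features gave 10 and 21, and without both libraries that stood apart the counts were 14 and 22; in the low-numbered libraries alone (2 against 2) no member of either list passed, with medians of -0.78 and -0.85. Alpha cells had a median of -0.41 for the replication list and -1.0 for the mitosis list over the same ages, and for no member of either list was the difference between the cell types called.

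**Figure D3:**
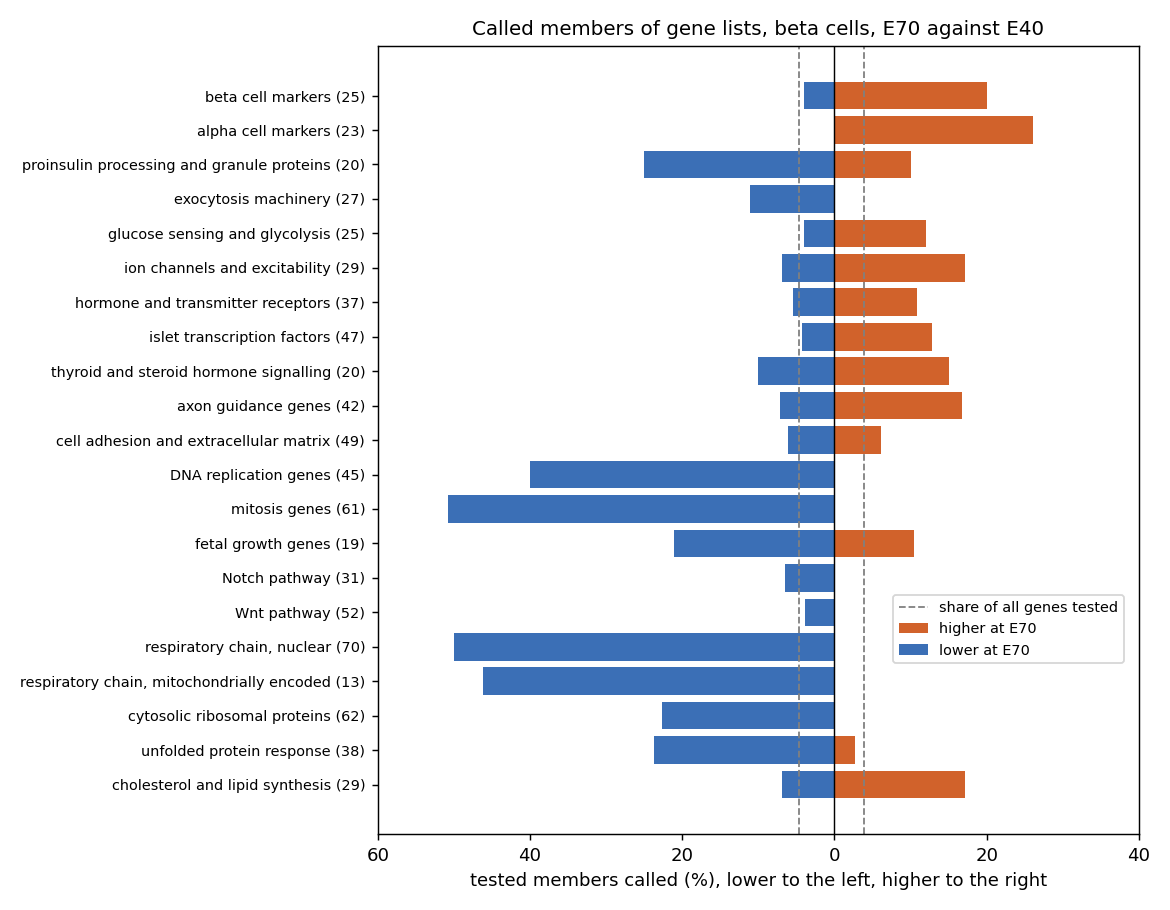
Share of the tested members of 21 gene lists (x axis, percent; numbers tested in parentheses) that were called higher at E70 (orange, right) or lower (blue, left) in beta cells, with the shares over all genes tested as dashed lines (3.92% higher, 4.66% lower). The longest bars are falls of mitosis (50.8%), nuclear respiratory chain (50%), mitochondrially encoded (46.2%) and DNA replication genes (40%).

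The brakes on the cell cycle did not move together. Of 27 genes of cyclin D, its kinases and the cell cycle inhibitors 2 rose and 2 fell. This is 7.41% each way, beside 3.92% of all genes rising and 4.66% falling. CDKN1A (p21), an inhibitor that responds to p53 and other signals, was at 1.49, 7.03, 0.962, 3.8 and 1.05 TPM at E70 against 16.5, 27.4 and 36.1 TPM (lowest, median, highest) at E40. It was lower in every E70 library (log2 -3.03 ± 0.58, adjusted p = 0.000778). CDKN1C (p57), an imprinted inhibitor that restrains fetal growth, rose from 4.36 ± 2.41 to 11.6 ± 2.52 TPM without overlap (1.37 ± 0.39, adjusted p = 0.0232), but lost its call without E40 replicate 1 or 6 or E70 replicate 3 (adjusted p 0.0576 to 0.0637), without both libraries that stood apart (0.13), without the low-numbered libraries (0.183) and with a pseudocount of 0.1 (0.178).

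Of 19 fetal growth genes 4 fell (21.1%) and 2 rose (10.5%), beside 4.66% and 3.92% of all genes, with a median of -0.32. LIN28B, which blocks the maturation of let-7 microRNAs in early tissue, was at 1.57, 2.69, 0.588, 0.69 and 0.741 TPM against 3.21 to 9.33 TPM at E40 (log2 -1.71 ± 0.28, adjusted p = 0.00013). IGF2BP1, a fetal RNA-binding protein, was at 9.98 to 18.6 TPM against 37.2 to 57.4 TPM (-1.56 ± 0.34, adjusted p = 0.00329), but did not pass with a pseudocount of 0.1 (0.118). Its symbol is shared by more than 1 identifier, so its level is uncertain. The imprinted gene PEG10 fell from 608 ± 199 to 181 ± 106 TPM (-1.89 ± 0.37, adjusted p = 0.00101). None of these 3 overlapped, and ARID3B fell as well. PLAG1, a transcription factor of fetal growth, rose from 7.92 ± 3.28 to 20.4 ± 4.21 TPM without overlap (1.33 ± 0.28, adjusted p = 0.00256). IGF2 itself, the main fetal growth factor, was at 1376 ± 276 and 1232 ± 297 TPM and did not pass (-0.17 ± 0.24, adjusted p = 0.741).

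Signalling pathways of early development gave few calls, all of them falls. In the Notch pathway 2 of 31 genes fell, the ligand genes DLL1 and JAG1, in the Wnt pathway TCF7 and NKD1 of 52, and in the BMP, activin and TGF-beta pathway ID2 of 39; of 29 Hedgehog and FGF genes limma called none, and 2 had an unadjusted p below 0.05, both higher. These shares (6.45%, 3.85% and 2.56%) are close to the 4.66% of all genes that fell. At an unadjusted limma p below 0.05 the lists went different ways: 7 Notch genes were lower and 0 higher, 5 Wnt genes lower and 7 higher. In the BMP, activin and TGF-beta list 5 were lower and 8 higher. The list medians were -0.02, 0.09 and 0.13 in that order. DLL1 was at 14.8, 15, 18.3, 12.3 and 13 TPM at E70 and at 32.8, 37.5 and 55 TPM (lowest, median, highest) at E40, fully separated (log2 -1.38 ± 0.22, adjusted p = 0.000102). JAG1 fell from 15.8 ± 7.38 to 4.34 ± 2.1 TPM, overlapping through E40 replicate 2 at 3.56 TPM (-1.59 ± 0.38, adjusted p = 0.00677), and not when only the compared groups were fitted (0.0505) or without both libraries that stood apart (0.0503). TCF7, a transcription factor at the end of the Wnt pathway, fell from 17.4 ± 2.79 to 4.57 ± 1.99 TPM (-1.78 ± 0.41, adjusted p = 0.00527). ID2, a BMP target that blocks helix-loop-helix factors, fell from 36.7 ± 12.1 to 13.7 ± 4.7 TPM (-1.33 ± 0.29, adjusted p = 0.0032), overlapping through E40 replicate 2 at 17.5 TPM.

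Guidance cues and receptors, which steer axons and also cell positions in the islet, had 7 rises (16.7%) and 3 falls (7.14%) among 42 measured genes. Over all genes 3.92% rose and 4.66% fell. ROBO2 (ENSSSCG00000012002.3), the Slit receptor known for keeping islet cells sorted, was at 133, 97, 249, 176 and 182 TPM at E70 and at 18.5, 29.2 and 52.6 TPM (lowest, median, highest) at E40. Every E70 library was higher (log2 2.36 ± 0.20, adjusted p = 1.08e-08). UNC5D, a netrin receptor, rose from 3.9 ± 2.31 to 30.9 ± 15.8 TPM (2.65 ± 0.35, adjusted p = 6.48e-06), and the transmembrane semaphorin SEMA5A was at 52.9, 38.4, 110.3, 69.7 and 46.2 TPM against 8.12 to 25.2 TPM (1.91 ± 0.42, adjusted p = 0.00311), both without overlap. NTN4, a netrin of basement membranes, rose from 3.92 ± 2.85 to 11.2 ± 3.81 TPM, overlapping through E40 replicate 3 at 8.14 TPM (1.48 ± 0.35, adjusted p = 0.00561), but not when only the compared groups were fitted (0.0609) or without the low-numbered libraries (0.0653). UNC5A, SEMA3E and SEMA6D also rose. SEMA3D, a secreted semaphorin, fell from 61.9 ± 9.53 to 15.1 ± 7.44 TPM without overlap (-2.09 ± 0.30, adjusted p = 2.76e-05), and the ephrin receptor genes EPHA3 and EPHA4 fell too.

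Of 49 genes of adhesion and extracellular matrix 3 rose, among them CDH1 and ITGB8, and 3 fell (CLDN6, COL2A1 and COL11A1). This is 6.12% each way, close to the 3.92% of all genes that rose and the 4.66% that fell. ITGB8, an integrin that activates TGF-beta, rose from 40.8 ± 5.56 to 96.8 ± 23.5 TPM without overlap (log2 1.20 ± 0.19, adjusted p = 0.0001). The counts were 6 up without E40 replicate 1, and 5 down without E40 replicate 2 or E70 replicate 5. Of 19 mesenchyme markers limma called none, and 1 had an unadjusted p below 0.05.

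Nuclear genes of the respiratory chain fell broadly. Of 70 measured 35 fell (50%, beside 4.66% of all genes) and none rose, with a median of -0.82 and 68 negative values. NDUFS5, a complex I subunit, was at 262, 268, 418, 243 and 253 TPM at E70 against 507, 691 and 899.7 TPM (lowest, median, highest) at E40, lower in every E70 library (log2 -1.29 ± 0.19, adjusted p = 4.84e-05). NDUFC1, also of complex I, fell from 54.8 ± 7.76 to 24.3 ± 4.78 TPM (-1.15 ± 0.16, adjusted p = 2.71e-05), ATP5ME, of the ATP synthase, from 1247 ± 364 to 341 ± 101 TPM (-1.85 ± 0.29, adjusted p = 7.49e-05), and COX6A1, of cytochrome oxidase, from 50.1 ± 12.6 to 21.1 ± 3.16 TPM (-1.18 ± 0.18, adjusted p = 5.90e-05). NDUFA3, a further complex I gene whose symbol is shared by more than 1 identifier and whose level is therefore uncertain, fell from 618 ± 156 to 156 ± 28.6 TPM (-1.96 ± 0.22, adjusted p = 5.62e-07). None of these 5 overlapped. The count was 23 after quantile normalization and 27, with 1 rise, after removal of the 10 most abundant features. In alpha cells the list's median was -0.40, and for no member was the difference between the cell types called.

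Of the 13 mitochondrially encoded genes 6 fell (46.2%, beside 4.66% of all genes) and all 13 had negative values, with a median of -0.63. MT-ND4, a complex I subunit, was at 2449.6, 1996, 2348, 2026 and 2476 TPM against 4128 to 5371 TPM at E40, without overlap (log2 -1.05 ± 0.19, adjusted p = 0.000333). The count was 3 without any one of E40 replicates 4, 5 and 6 or E70 replicates 2, 3 and 4. Of 62 ribosomal protein genes 14 fell (22.6%) and none rose, with a median of -0.41, and 11 had positive values. RPS29, a small-subunit protein, was at 734, 648, 598, 479 and 666 TPM against 1231, 2221 and 3034 TPM (lowest, median, highest) at E40, all E70 libraries below (-1.72 ± 0.21, adjusted p = 1.91e-06). RPL37 fell from 1452 ± 425 to 461.9 ± 63 TPM (-1.59 ± 0.21, adjusted p = 1.05e-05) and RPL27 from 1677 ± 538 to 658 ± 106 TPM (-1.29 ± 0.20, adjusted p = 5.90e-05), also without overlap. After quantile normalization 6 fell, 1 rose and the median was 0.01. In the low-numbered libraries alone (2 against 2) the median was likewise 0.01 with none called, and without these libraries it was -0.61 with 21 falls.

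**Figure D4:**
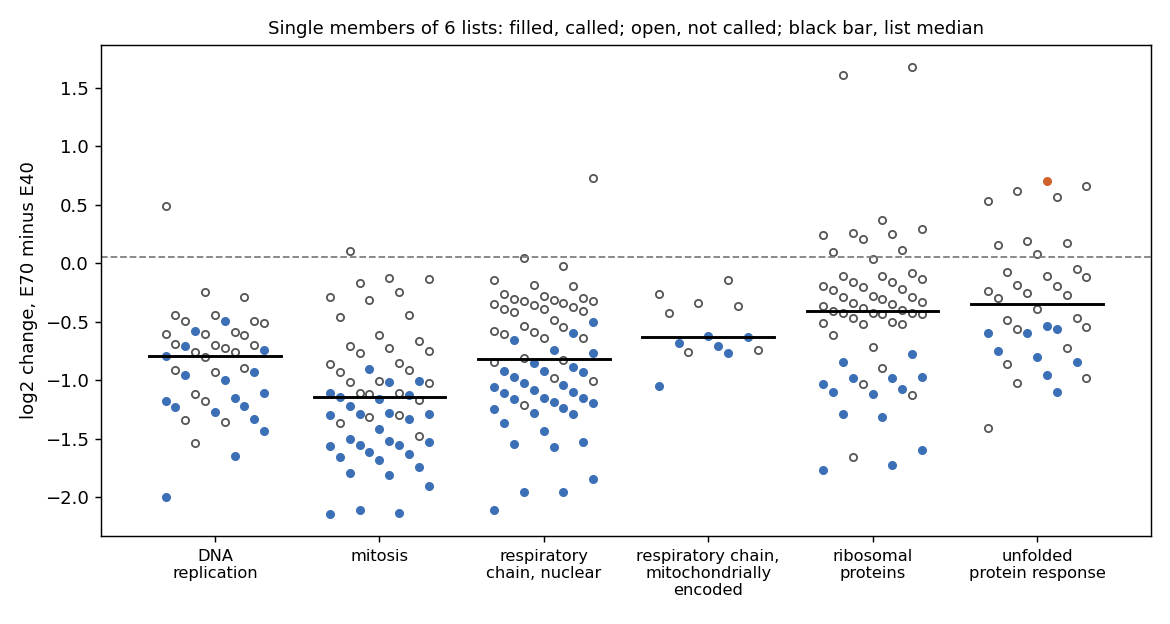
Log2 change from E40 to E70 in beta cells (y axis) of single members of 6 gene lists; filled points were called (blue, lower; orange, higher), open points were not, black bars are list medians and the dashed line is the median of all genes (0.06). Nearly all points of the replication, mitosis and respiratory chain lists lie below the dashed line, while 11 of 62 ribosomal protein genes lie above 0.

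The unfolded protein response helps secretory proteins to fold in the endoplasmic reticulum. Of 38 of its genes 9 fell (23.7%) and 1 rose (CREB3L2, 2.63%), beside 4.66% and 3.92% of all genes, with a median of -0.34. The falls were of chaperones and folding enzymes, among them HSPA5, HSP90B1, PDIA4 and MANF. MANF, a secreted factor of the stressed reticulum, was at 33.1, 47.3, 71.3, 44.6 and 41 TPM at E70 and at 74.4, 99.98 and 133 TPM (lowest, median, highest) at E40, without overlap (log2 -1.10 ± 0.24, adjusted p = 0.00287). DNAJC10, a reductase of the same compartment, fell from 173 ± 28.6 to 114 ± 12.1 TPM (-0.59 ± 0.12, adjusted p = 0.00096), its highest E70 value (125 TPM) just under its lowest at E40 (132 TPM). The list gave 2 falls and 3 rises both after quantile normalization and after removal of the 10 most abundant features, and 5 falls without E40 replicate 3.

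Lipid synthesis had 5 rises (17.2%) and 2 falls (ACSL3 and GPAM, 6.9%) among 29 measured genes, with a median of 0.03. Over all genes 3.92% rose and 4.66% fell. Both master regulators rose, SREBF1 from 6.83 ± 0.759 to 16.1 ± 2.11 TPM (log2 1.12 ± 0.20, adjusted p = 0.000349) and SREBF2 from 27.2 ± 6.18 to 55.2 ± 9.4 TPM (1.01 ± 0.19, adjusted p = 0.000613), neither with overlap. SCD, which makes monounsaturated fatty acids, was at 18.5, 21, 39.9, 21 and 22.4 TPM against 5.4, 6.88 and 14.3 TPM (lowest, median, highest), the last in E40 replicate 1, without overlap (1.54 ± 0.22, adjusted p = 3.40e-05). FASN, fatty acid synthase, rose from 51.7 ± 20.4 to 89.5 ± 13.4 TPM (0.84 ± 0.18, adjusted p = 0.00237), with E40 replicate 1 at 91.9 TPM inside the E70 range. DHCR7, the last step of cholesterol synthesis, was the fifth.

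Transcripts of other cell types were called in small numbers. Of 16 acinar markers 3 rose (CLPS, PNLIPRP1 and PNLIPRP2, 18.8% beside 3.92% of all genes) and none fell. The summed share of the list ran from 0.00664% to 0.232% at E40 and from 0.0246% to 0.749% at E70. CLPS, the cofactor of pancreatic lipase, was at 132, 427, 18, 362 and 715 TPM against at most 17.1 TPM at E40 (log2 5.20 ± 1.08, adjusted p = 0.00197), and the protease gene CTRB2 at 269.6, 553, 76, 2864 and 1407 TPM against at most 46.8 TPM (5.52 ± 1.10, adjusted p = 0.00119). The changes of CLPS and CTRB2 in alpha cells were 4.59 and 5.82. Of 13 red blood cell markers 3 fell (23.1%, beside 4.66% of all genes). HBB was listed at 0 in all 5 E70 libraries and between 3.56 and 256 TPM at E40, and HBA2 was at most 8.55 TPM against 4.68 to 823 TPM (-4.22 ± 1.02, adjusted p = 0.00749), not called without the low-numbered libraries (0.153). Of 14 endothelial markers EGFL7 and PLVAP rose (14.3%, beside 3.92% of all genes). EGFL7 was at 41.1 to 52.8 TPM against 12.3 to 21.3 TPM (1.33 ± 0.27, adjusted p = 0.00137). The defining genes PECAM1, CDH5 and KDR were not called and reached at most 18.2, 5.82 and 6.17 TPM, each in E40 replicate 1. Among 34 dissociation and early response genes only HSPA1A rose (2.94%, beside 3.92% of all genes). It was at 517, 377, 1217, 445 and 287 TPM against 41.3 to 495 TPM (2.40 ± 0.59, adjusted p = 0.0081), and was not called when only the compared groups were fitted (0.0543). It overlapped through E40 replicate 1 alone. E40 replicates 1 and 2, the low-numbered libraries of that age, were at 494.9 and 265.8 TPM and the other E40 libraries at most at 52.5 TPM, and among the low-numbered libraries of both ages the change was 0.28. Of 17 immune cell, 16 neural and 25 interferon response genes limma called none, and 1, 4 and 5 of them had an unadjusted p below 0.05. Of 13 duct markers TFF2 rose (7.69%, beside 3.92% of all genes).

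The difference between the change in beta cells and that in alpha cells over the same ages was tested for each gene in the same limma fit, with all libraries taken as independent. The beta change was higher for 73 genes (0.409% of 17839) and lower for 299 (1.68%), 2.09% in all. The split changed with the scaling and with the libraries used. With TPM unchanged, 47 were higher and 102 lower without alpha E40 replicate 1, and 46 and 116 without the low-numbered libraries. The median difference over all genes was -0.31 (median change 0.06 in beta and 0.33 in alpha cells). With median-of-ratios scaling, which took that median to about 0, 128 were higher and 73 lower, and after quantile normalization 0.628% of the genes tested were higher and 0.342% lower. The genes named next as differing kept their call under TPM, median-of-ratios, quantile normalization and removal of hormone and mitochondrial genes unless stated.

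Among genes with the higher change in beta cells was MAFA, at 0.134 ± 0.116 and 0.0859 ± 0.0803 TPM in alpha cells at E40 and E70 (difference of log2 changes 3.15 ± 0.66, adjusted p = 0.00821). KCNG3 was listed at 0 in all alpha libraries of E40 and at 0.699 ± 1.37 TPM at E70 (3.13 ± 0.60, adjusted p = 0.00402). SMIM24 was at 1.07 ± 0.654 TPM in alpha cells at E70 (2.98 ± 0.52, adjusted p = 0.00172), and PLD1 went only from 6.29 ± 2.03 to 9.56 ± 1.54 TPM there (2.03 ± 0.38, adjusted p = 0.00327). PDE3A, a phosphodiesterase that degrades cyclic AMP, rose in beta cells from 2.45 ± 2.2 to 18.7 ± 5.09 TPM and was at 2.49 ± 0.969 and 0.82 ± 0.481 TPM in alpha cells (3.65 ± 0.70, adjusted p = 0.00387). SEMA5A was at 9.99 ± 4.65 and 3.24 ± 2.02 TPM in alpha cells, against its rise in beta cells (3.35 ± 0.65, adjusted p = 0.00458). P2RY1 (2.78 ± 0.68, adjusted p = 0.0296) and CHRM3 (2.29 ± 0.61, adjusted p = 0.0436) also differed, but P2RY1 not without E70 replicate 3, 4 or 5 of beta cells, E40 replicate 2 or 3 or E70 replicate 3 of alpha cells (adjusted p 0.0519 to 0.0649), and CHRM3 not without hormone and mitochondrial genes (0.0666) or in 14 of the 19 fits that left out 1 library (0.0514 to 0.0859).

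In 3 genes most of the difference lay in lower alpha values at E70. FABP5, a fatty acid carrier, went there from 1241 ± 209 to 108 ± 36.9 TPM and was at 11.4 ± 5.15 and 23.7 ± 12.1 TPM in beta cells (4.51 ± 0.87, adjusted p = 0.0043). SLC32A1, the vesicular transporter of GABA, was at 13.2 ± 8.24 and 1.06 ± 1.53 TPM in alpha cells and at 0.141 ± 0.257 and 1.55 ± 1.81 TPM in beta cells (3.77 ± 0.58, adjusted p = 0.000528). FOXA1 was lower at E70 in both, and went from 16.7 ± 1.17 to 0.471 ± 0.511 TPM in alpha cells (2.65 ± 0.49, adjusted p = 0.00318).

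On the other side, PCDH17 (ENSSSCG00000009446.3), a protocadherin, was at 103, 108, 63.8, 55.6, 62.2 and 67.3 TPM in beta cells at E40 and at 25.9 to 42.1 TPM at E70, while alpha cells went from 3.65 ± 3.02 to 59.5 ± 22.5 TPM. Its difference was the largest of those named here (-5.01 ± 0.46, adjusted p = 6.07e-08). The fall in beta cells alone (-1.10 ± 0.29, adjusted p = 0.0151) was not called without both libraries that stood apart (0.0804), without the low-numbered libraries (0.0651) or with a pseudocount of 0.1 (0.0769). IGF2 stood at similar levels in beta cells at both ages and went in alpha cells from 99.2 ± 9.34 to 1617 ± 348 TPM (-4.16 ± 0.38, adjusted p = 6.07e-08). PCSK1 fell in beta cells and went from 1.02 ± 0.825 to 8.54 ± 2.38 TPM in alpha cells (-3.16 ± 0.39, adjusted p = 2.19e-05). These alpha values are low, and INS in the same alpha libraries went from 439 ± 592 to 2497 ± 2029 TPM (log2 3.27). Whether beta cell RNA in the alpha libraries adds to the PCSK1 difference was not tested. MRAP2, which modulates melanocortin and ghrelin receptors, went in alpha cells from 5.73 ± 2.17 to 63 ± 12.8 TPM and was at 5.42 ± 3.21 and 3.28 ± 1.7 TPM in beta cells (-3.79 ± 0.69, adjusted p = 0.00296).

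NELL1, JAK1 and TLE1, which fell in beta cells, were at lower levels in alpha cells, with higher means at E70 than at E40 (0.111 and 0.741 TPM, 65.2 and 89.8 TPM, and 7.68 and 12.2 TPM at E40 and E70), with differences of -3.19 ± 0.42, -1.44 ± 0.15 and -2.37 ± 0.31 (adjusted p = 5.61e-05, 5.15e-07 and 5.61e-05). SORCS1, a sorting receptor of secretory granules, fell in beta cells from 7.68 ± 1.17 to 1.78 ± 0.495 TPM and was at 3.95 ± 3.38 and 10.5 ± 1.98 TPM in alpha cells (-3.27 ± 0.58, adjusted p = 0.00239). The Notch ligand gene DLL1 was at 42.1 ± 7.81 and 66.2 ± 13.8 TPM in alpha cells, against its fall in beta cells (-2.01 ± 0.35, adjusted p = 0.00171). NEUROD1 was at 385 ± 103 and 382 ± 138 TPM in alpha cells (-1.36 ± 0.35, adjusted p = 0.039), but its difference was not called under median-of-ratios scaling (0.332) or quantile normalization (0.178), nor in 9 of the 19 fits that left out 1 library (0.0557 to 0.0794). The loss under these 2 scalings held also for FKBP5 (-1.45 ± 0.28, adjusted p = 0.00458; then 0.0704 and 0.103), PEG10 (-2.72 ± 0.58, adjusted p = 0.00974; then 0.0738 and 0.0845) and ID2 (-1.71 ± 0.46, adjusted p = 0.0444; then 0.256 and 0.321). The ID2 difference was also lost in 13 of the 19 fits that left out 1 library (0.0551 to 0.205), and CACNA2D1 (-1.39 ± 0.28, adjusted p = 0.0067) was lost without hormone and mitochondrial genes (0.0877). Of the genes called in beta cells, 102 were also called for the difference: 33 rose with a higher and 7 with a lower beta change, and 61 fell with a lower and 1 with a higher one.

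**Figure D5:**
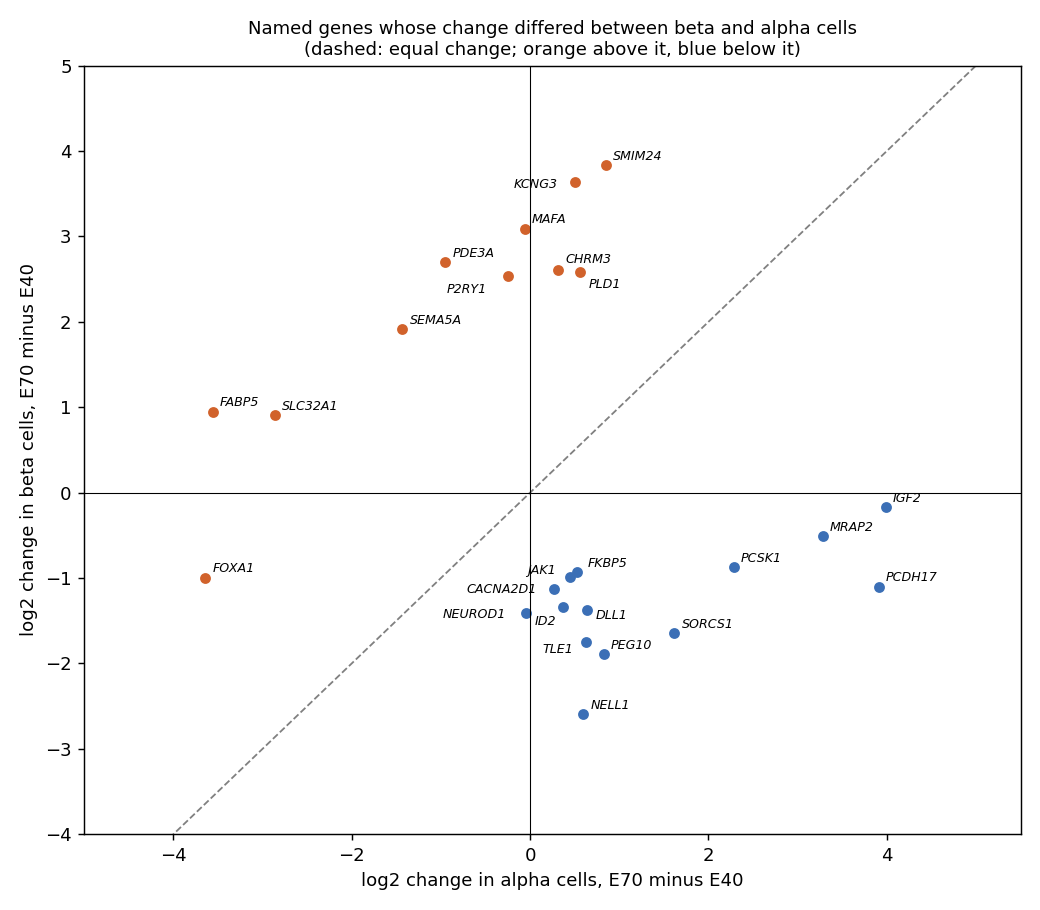
Log2 change from E40 to E70 in alpha cells (x axis) and in beta cells (y axis) of the 25 named genes whose changes differed between the cell types; the dashed line marks equal change. Genes above it (orange) have the higher change in beta cells, such as MAFA and SMIM24, and genes below it (blue) the lower, such as PCDH17, IGF2 and NELL1.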

How the data were processed

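The values were TPM (transcript levels corrected for length, on a fixed total) as deposited by the authors, in 1 table of 22630 Ensembl gene identifiers and 37 libraries. Quantification is credited to Salmon 0.11.3, per the submitters' processing notes, and total RNA, a stranded kit and paired-end reads are given per the labels' protocols. The genome build behind the table is not given in the sources used here, and no coordinates are printed. TPM holds no read depth, so no sampling error of a single value can be given.

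Expression was log2(TPM + 1), and the 17839 genes that reached 1 TPM in 2 or more libraries entered a fit by limma 3.58.1 in R 4.3.3, with 1 mean for each of the cell type and age groups of all 37 libraries, eBayes(trend=TRUE) and 25 residual degrees of freedom. Contrasts were E70 minus E40 in beta cells, and that change minus the same change in alpha cells. Values after ± beside log2 changes are standard errors of the fit, and those beside TPM or shares are SDs between libraries (n = 6 and 5 for beta cells, 3 and 5 for alpha cells). Every adjusted p of a gene is the Benjamini-Hochberg value of limma over all genes tested, called below 0.05; in brackets the log2 change comes first, and a lone value after a named alternative is its adjusted p. Summed TPM shares were compared by exact permutation. Replicates are numbered in the order of the deposited samples, and no 2 libraries held identical values (Spearman's rho within these groups at least 0.891). The limma contrast of E70 against E40 in beta cells was tested on simulated data. The difference from alpha cells and the permutation test of shares were not.

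The libraries, the gene lists and the genes were chosen with earlier results of these data known. Lists are described by counts and medians. The genes named are the 15 largest called changes each way, the 10 with the smallest adjusted p each way, up to 6 members of each list, the islet hormones and transcription factors, and the 8 largest differences from alpha cells each way, from which a selection is printed; list members printed without values and defining markers are named beside them. Where a symbol was shared by several identifiers (2625 genes), the one with the highest mean was used. Alternatives were a pseudocount of 0.1, other filters, median-of-ratios scaling, quantile normalization, leaving out hormone and mitochondrially encoded genes, array weights, robust moderation, only the groups compared, a term for title numbers under 100, their removal, and each library left out. Added after seeing the data were removal of the 10 most abundant features, removal of both libraries that stood apart, and a block of beta and alpha libraries with neighbouring title numbers. A few further members of the lists are not reported here by name.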

Additional observations from a re-analysis of the deposited data

Results flagged for a closer look

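In 26 of 246 groups of values that were checked, 1 library lay far from the rest of its own group, where chance gives about 1 in 20. E40 replicate 1 was the high one for SST (229.5 TPM), KCNG3 (2.34 TPM), MCM6 (127 TPM), UNC5D (8.50 TPM), ITGB8 (51.7 TPM), SCD (14.3 TPM) and FASN (91.9 TPM). It also had the highest shares of red blood cell (0.120%), alpha cell (0.473%) and endothelial (0.0096%) markers and the lowest share of mitochondrially encoded transcripts (8.93%) of its group. E40 replicate 2 was high for SCG2 (5215 TPM) and low for JAG1 (3.56 TPM) and EGFL7 (12.3 TPM), and ENSSSCG00000035520.1 was listed at 0 in it. FABP5 was low in E40 replicate 3 (1.03 TPM) and in E70 replicate 3 (3.37 TPM), and LMX1A was high in E40 replicate 5 (0.44 TPM). At E70, replicate 2 was high for ZFP42 (3.73 TPM), replicate 3 high for NDUFS5 (418 TPM) and SCD (39.9 TPM), and replicate 5 high for FASN (112.8 TPM). E70 replicate 4 was low for FOXA2 (65.0 TPM), KCNH6 (15.3 TPM), KIF18A (0.358 TPM) and COX6A1 (15.8 TPM).

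For 25 named genes the change from E40 to E70 differed between beta and alpha cells by the limma test of that difference, with the adjusted p values given in the report. The beta change was higher on the log2 scale for FABP5 (4.51), SLC32A1 (3.77), PDE3A (3.65), SEMA5A (3.35), MAFA (3.15), KCNG3 (3.13), SMIM24 (2.98), P2RY1 (2.78), FOXA1 (2.65), CHRM3 (2.29) and PLD1 (2.03). It was lower for PCDH17 (-5.01), IGF2 (-4.16), MRAP2 (-3.79), SORCS1 (-3.27), NELL1 (-3.19), PCSK1 (-3.16), PEG10 (-2.72), TLE1 (-2.37), DLL1 (-2.01), ID2 (-1.71), FKBP5 (-1.45), JAK1 (-1.44), CACNA2D1 (-1.39) and NEUROD1 (-1.36). With a pseudocount of 0.1 the differences of FOXA1 (adjusted p = 0.174), KCNG3 (0.0967), SMIM24 (0.176), CHRM3 (0.276), P2RY1 (0.123) and ID2 (0.0546) were not called.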

How the results depend on the processing

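For E70 against E40 no pairing could be used, because the labels carry no numbers that join libraries of the 2 ages. Beta and alpha libraries of an age have neighbouring title numbers (at most 2 apart) in 8 cases, and the labels do not say that these share an animal. Deviations from the group means correlated at 0.01 to 0.20 over genes within these pairs, so that not every pair passed 0.1, and in 7 of 8 the beta library correlated best with its neighbour. A replicate block of these pairs, added after seeing the data and without beta E40 replicates 1, 2 and 6, gave 0.454% higher and 1.81% lower for the difference from alpha cells. Of the 25 named differences it left P2RY1 (adjusted p = 0.0695), CHRM3 (0.106) and CACNA2D1 (0.07) uncalled. Of the 99 genes named with a call for E70 against E40, 93 kept it whichever library was left out. Under all alternatives except the 2 against 2 low-numbered libraries 80 kept it. In those libraries, themselves part of the comparison, 14 were called and all 99 kept their direction. The named genes were chosen largely by change or adjusted p in these data, so these counts do not describe calls in general. Of all 1531 calls, 70.4% (without E70 replicate 4) to 93% (without E40 replicate 1) were kept with 1 library left out. Leaving out 1 library gave 504 to 897 rises and 580 to 929 falls; array weights gave 2407 and 1993, removal of the 10 most abundant features 1564 and 439, and the low-numbered libraries alone 38 and 21.

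For the difference from alpha cells (0.409% of genes tested higher, 1.68% lower), leaving out 1 library gave 0.263% to 0.443% higher and 0.572% to 2.81% lower. The lower share moved most without alpha E40 replicate 1 (0.572%, with 0.263% higher) or 2 (2.81%). It was 1.11%, 0.959% and 1.06% without beta E40 replicate 1, 2 or 3, 0.835% and 0.992% without beta E70 replicate 4 or 5, and 0.947%, 0.975% and 0.874% without alpha E70 replicate 3, 4 or 5. A pseudocount of 0.1 gave 0.252% higher, median-of-ratios scaling 0.718% higher and 0.409% lower, quantile normalization 0.628% and 0.342%, removal of hormone and mitochondrial genes 0.348% lower, array weights 1.22% and 5.43%, removal of the low-numbered libraries 0.258% and 0.65%, of the 10 most abundant features 0.707% lower, and of both libraries that stood apart 1.03% lower. The cause of these shifts was not tested.

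Without the low-numbered libraries (3 against 4, where the smallest possible p in the exact permutation test is 0.0571) the E70 minus E40 differences of shares, in percentage points, were 7.37 for INS, -4.93 for mitochondrially encoded, -2.38 for ribosomal protein, -0.00366 for red blood cell and 0.00533 for endothelial transcripts, none past the threshold. Without both libraries that stood apart the INS difference was 5.92 (exact permutation test, adjusted p = 0.0698). The immune cell share passed after removal of hormone and mitochondrial genes (0.00268 points; exact permutation test, adjusted p = 0.026). With 1 library left out the differences were 5.11 to 7.25 for INS, -5.20 to -3.95 for mitochondrially encoded, -1.87 to -1.49 for ribosomal protein, -0.0275 to -0.00516 for red blood cell (the smallest without E40 replicate 1), 0.0047 to 0.00577 for endothelial and 0.00143 to 0.00219 for immune cell transcripts. The first 5 then missed the threshold in 8 or 9 of 11 cases, with an adjusted p of at most 0.0629. Depth is unknown, so how far it limits low genes could not be assessed.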

Other observations

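Among the 10 most abundant features of the 11 beta cell libraries were identifiers that the table and the name list leave without a symbol, chosen here after their values were seen. ENSSSCG00000032395.1 was at 46963, 90276, 18796, 57945 and 55772 TPM at E70 and at 3667, 6055 and 18694 TPM (lowest, median, highest) at E40, so that E70 replicate 3 lay just above E40 replicate 1. Its log2 change was 2.90 ± 0.41 (limma, adjusted p = 2.21e-05). ENSSSCG00000032599.1 was at 28108, 71924, 10204, 27075 and 19704 TPM against 1891 to 16481 TPM, overlapping through E40 replicates 1 and 2 (2.43 ± 0.50, limma, adjusted p = 0.00189), and was not called when only the compared groups were fitted (0.0589). Alpha cells went from 4961 ± 670.2 to 66692 ± 24466 TPM of the former and from 3580.3 ± 572 to 32904 ± 13292 TPM of the latter. In the other direction, ENSSSCG00000035520.1 was between 1466 and 2579 TPM in 5 of the 6 E40 libraries and listed at 0 in E40 replicate 2 and in all 5 E70 libraries. What these features are was not determined, and TPM are shares of 1 total, so their rise lowers the TPM of all other genes of those libraries.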
